A study of Mus musculus with 2 samples.

Results

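Mouse genes of miR-23, miR-27 and miR-24 lie in 2 clusters, Mir23a, Mir27a and Mir24-2 on chromosome 8 and Mir23b, Mir27b and Mir24-1 on chromosome 13. These 6 genes were chosen by symbol in the GENCODE M21 annotation, of 2202 annotated microRNA genes in all. Their counts were measured by microRNA sequencing of total RNA from the gastrocnemius, a calf muscle, of female B6CASTF1/J mice aged 25 days, whose parents are of the strains C57BL/6J and CAST/EiJ. No treatment is named, and replicates 1 and 2 form the only group, with 1 library each. Per the labels they came from females with different numbers under a single donor identifier, so SDs measure the spread between these libraries, which may not be between animals.

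MicroRNA genes of a cluster are usually copied into 1 long primary transcript, from which each hairpin is cut and trimmed to a mature strand of the 5′ (5p) or 3′ (3p) arm. The mature strand is loaded into an Argonaute protein and represses messenger RNAs that pair with its seed, bases 2 to 8. In muscle, miR-23a is known to repress the ubiquitin ligases Fbxo32 and Trim63, which drive muscle wasting. The miR-27 microRNAs are known to repress Pax3 in muscle progenitors and Pparg in fat cells, and miR-24 is known from mouse myoblast cultures to favour differentiation. The same clusters are also expressed in endothelium, where miR-23 and miR-27 act on vessel growth.

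The mature sequences are shown because a read that matches both clusters was not given to either gene. They are RefSeq sequences on GRCm38.p6, 5′ to 3′, with the seed in capitals. RefSeq hairpins were found for each of the 6 genes, with 11 mature entries, among them only the 5p sequence for Mir23b.
miR-23a-3p: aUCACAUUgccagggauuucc
miR-27a-3p: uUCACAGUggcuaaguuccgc
miR-27b-3p: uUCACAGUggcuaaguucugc
miR-24-3p: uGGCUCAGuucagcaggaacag
miR-24-2-5p: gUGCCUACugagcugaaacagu
miR-24-1-5p: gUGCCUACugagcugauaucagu
The seeds of miR-23a-3p and miR-27a-3p both begin with UCACA and then part, and miR-24-3p has a seed unlike either. Within the miR-27 pair the seed was identical, and the mature 3p sequences differed by 1 base of 21, C19U, with positions counted from 1 at the 5′ end and the base of miR-27a-3p given first. The miR-24-3p sequence was the same at both loci, whereas the 5p sequences of Mir24-2 and Mir24-1 shared their seed and parted at base 17.

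For miR-23 the hairpins of both loci are shown, with the longest stretch they share, 20 bases, in capitals. Mir23a spans chr8:84208518-84208592 and Mir23b spans chr13:63300484-63300557, both on the forward strand of mm10.
Mir23a: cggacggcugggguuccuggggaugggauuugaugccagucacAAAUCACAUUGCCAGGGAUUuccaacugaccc
Mir23b: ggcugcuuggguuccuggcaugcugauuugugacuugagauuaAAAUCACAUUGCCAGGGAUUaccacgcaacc
The shared stretch covered bases 44 to 63 of either hairpin and held the seed of miR-23a-3p. Over the 21 bases of miR-23a-3p, the Mir23b hairpin differed by 1, U19A, with the base of miR-23a-3p first. The longest stretch common to the Mir27a and Mir27b hairpins was also 20 bases. The Mir24-2 and Mir24-1 hairpins shared 28 bases, printed here with miR-24-3p in capitals, so that the identity ran past both ends of the mature sequence.
Mir24-2 and Mir24-1, chr8:84208872-84208899 and chr13:63301248-63301275: cacUGGCUCAGUUCAGCAGGAACAGgag

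Counting bases from the 5′ end showed where each sequence became particular to 1 of the annotated hairpins. The first 18 bases of miR-23a-3p were held by the hairpins of Mir23a and Mir23b, and 19 bases by Mir23a alone. For miR-27a-3p and miR-27b-3p the change also came at base 19. The 5p sequences of Mir23a, Mir23b, Mir27a and Mir27b were each held by 1 hairpin from 15 bases, the shortest length examined. The 5p sequences of Mir24-2 and Mir24-1 were held by 1 hairpin from 17 bases, and miR-24-3p at its full length of 22 bases was still held by both. The deposited counts leave out reads that aligned to several places. A read of miR-24-3p that matches both loci is thus in neither count. Levels of Mir24-2 and Mir24-1 are therefore uncertain and give no measure of miR-24-3p. Counts belong to whole hairpins, and the arm a read came from was not given.

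**Figure D1:**
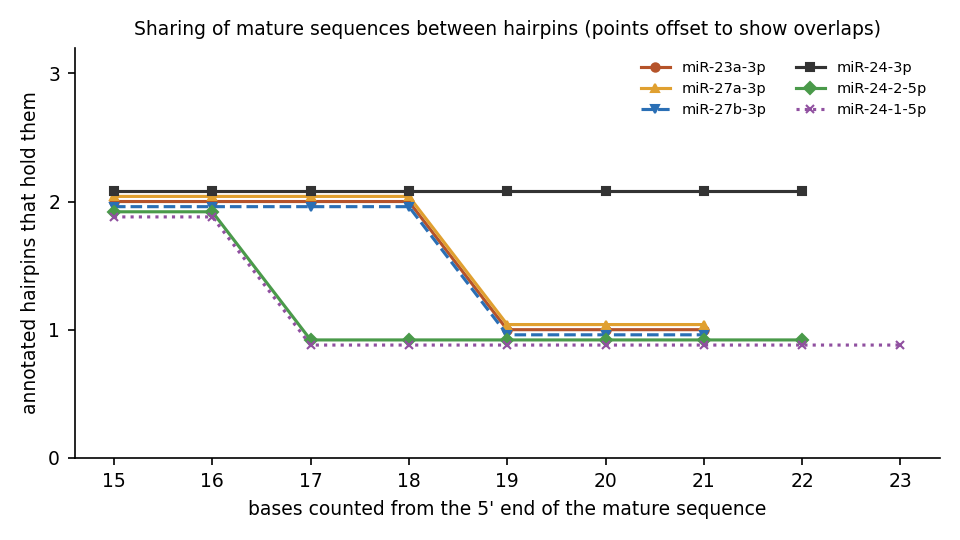
Number of annotated microRNA hairpins (vertical axis) that hold the first 15 to 23 bases (horizontal axis) of mature sequences of the 2 clusters. The lines of miR-23a-3p, miR-27a-3p and miR-27b-3p drop to 1 hairpin at 19 bases and those of the miR-24 5p sequences at 17, while miR-24-3p stays at 2 hairpins over its 22 bases.

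The chromosome 8 cluster was compact and lay outside protein-coding genes. Its hairpins span 404 bases on the forward strand of mm10, with 79 bases between Mir23a and Mir27a (chr8:84208672-84208758) and 56 between Mir27a and Mir24-2 (chr8:84208815-84208921). The last 2 bases of Mir24-2 overlap Gm26532, a gene of a long non-coding RNA. The chromosome 13 cluster spans 792 bases within the protein-coding gene 2010111I01Rik, on the same strand, with gaps of 154 and 423 bases. Fancc, a Fanconi anaemia DNA repair gene, lies across it on the reverse strand. Mir23b overlaps no annotated exon of these genes and is thus intronic. Mir27b (chr13:63300712-63300784) lies whole within a non-coding part of an exon of a 2010111I01Rik transcript annotated as subject to nonsense-mediated decay. Mir24-1 (chr13:63301208-63301275) lies likewise within an exon of a 2010111I01Rik transcript of this type, and whether it is the same transcript was not examined. Mir24-2 and Mir24-1 each have an annotated microRNA gene on the opposite strand, Mir3074-2 and Mir3074-1.

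Replicate 1 held 1573213 counts on the strand of microRNA genes and replicate 2 held 5429127. Levels are CPM, counts per 1000000 such counts in a library. A count of 0 allows up to 3 counts, or 1.91 CPM in replicate 1 and 0.553 CPM in replicate 2. Intervals are exact binomial (Clopper-Pearson) at 95%, and they cover counting error only, since no molecular identifiers were available. The 9 annotated striated muscle markers of the list used were all detected, led by Mir206, and held 3.57% of the counts in replicate 1 and 7.43% in replicate 2. The listed Mir486a and Mir486b were not matched by symbol. Mir486, at 651 CPM in replicate 1 and 717 CPM in replicate 2, was not counted among the markers. The 3 neuronal Mir124a genes had no count in either library, but they encode the same mature microRNA, so with reads aligned to several places left out this gives no measure of its level. Striated markers with several loci, such as the Mir1a and Mir133a genes, are touched by the same limit.

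All 6 genes were detected, at 2 CPM or more in both libraries, beside 14.7% of all annotated microRNA genes. Together they held 10.5% of the microRNA-gene counts of replicate 1 (95% interval 10.4 to 10.5) and 11.5% of replicate 2 (11.5 to 11.6), a mean of 11.0% ± 0.75 (SD, n = 2). The chromosome 8 cluster held 5.71% ± 0.487 of the counts and the chromosome 13 cluster 5.28% ± 0.263. In replicate 1 the shares were 5.37% for the chromosome 8 cluster and 5.09% for the chromosome 13 cluster, and in replicate 2 they were 6.06% and 5.47%. The chromosome 8 cluster was thus the higher one in both libraries. Intervals were 5.34 to 5.41% for it against 5.06 to 5.13% in replicate 1, and 6.04 to 6.08% against 5.45 to 5.49% in replicate 2. The means differed by less than the SD of the chromosome 8 share. Both shares rose from replicate 1 to replicate 2, so that SD does not measure the spread of their difference. Nearly all of the sum came from the miR-23 genes, at 10.1% ± 0.727, with the miR-27 genes at 0.824% ± 0.0208 and the miR-24 genes at 0.0429% ± 0.00202. Reads aligned to several places enter none of these shares. Since both miR-24 hairpins hold miR-24-3p whole, the miR-24 share gives no measure of miR-24-3p in the muscle.

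The miR-23 genes were among the highest by reads aligned to 1 place. These reads leave out 68.6% of all reads of replicate 1 and 69.7% of replicate 2, tallied as aligned to several places, so the ranks given here hold for the deposited counts and not for the tissue. Mir23a had 81819 counts in replicate 1 and 319781 in replicate 2, which gave 52008 CPM (51661 to 52356) and 58901 CPM (58703 to 59099). It ranked 5 of all microRNA genes in either library. Mir23b had 69438 and 258047 counts, or 44138 CPM (43817 to 44460) in replicate 1 and 47530 CPM (47351 to 47709) in replicate 2, at ranks 7 and 8. Mean levels were 55454 ± 4874 CPM for Mir23a and 45834 ± 2399 CPM for Mir23b (SD, n = 2 each), and the libraries' values of the genes did not overlap. By mean level, Mir143 came just above Mir23a and Mir206 just below it, while Mirlet7g came just above Mir23b and Mirlet7i just below it.

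The miR-27 genes were lower, and here the chromosome 13 gene was the higher one. Mir27a had 2062 counts in replicate 1 and 6972 in replicate 2, or 1311 CPM (1255 to 1368) and 1284 CPM (1254 to 1315). Mir27b had 10665 and 38546 counts, or 6779 CPM (6651 to 6909) in replicate 1 and 7100 CPM (7029 to 7171) in replicate 2. Mir27b ranked 24 in either library, and Mir27a ranked 66 and 63. Mean levels were 1297 ± 18.7 CPM for Mir27a and 6939 ± 227 CPM for Mir27b (SD, n = 2 each).

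The miR-24 genes were counted lowest. Mir24-2 had 604 counts in replicate 1 and 2227 in replicate 2, or 384 CPM (354 to 416) and 410 CPM (393 to 428), at ranks 112 and 106. Mir24-1 had 48 and 178 counts, or 30.5 CPM (22.5 to 40.5) in replicate 1 and 32.8 CPM (28.1 to 38.0) in replicate 2, at ranks 224 and 218. Mean levels were 397 ± 18.6 CPM for Mir24-2 and 31.6 ± 1.61 CPM for Mir24-1 (SD, n = 2 each). These values count only reads that aligned to 1 place, and the 28 bases common to both hairpins include all of miR-24-3p, as shown above.

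**Figure D2:**
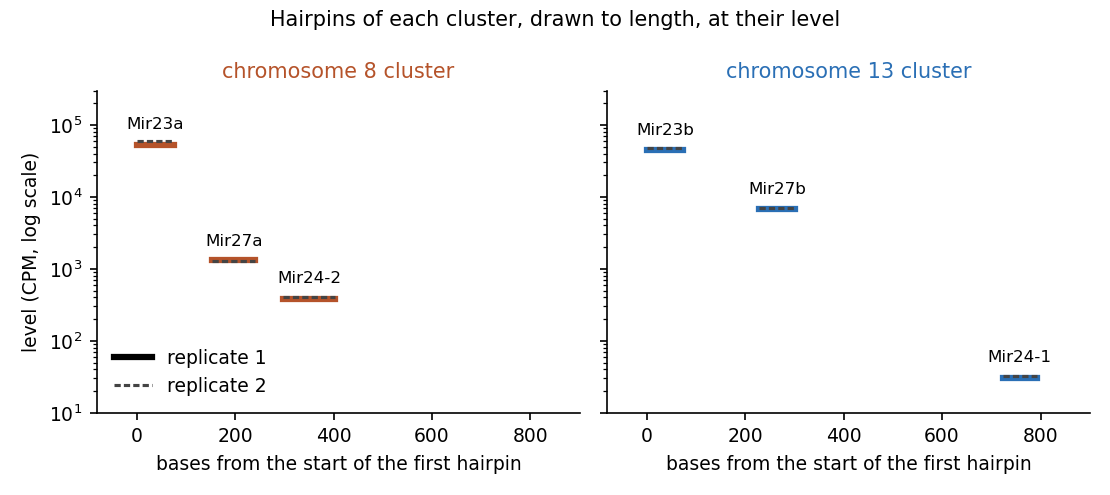
Hairpins of the chromosome 8 cluster (left) and the chromosome 13 cluster (right), drawn as lines to their length. The horizontal axis is the distance in bases from the start of the first hairpin and the vertical axis the level in CPM on a log scale, with replicate 1 solid and replicate 2 dashed. In either cluster the level by reads aligned to 1 place falls from the miR-23 to the miR-27 and on to the miR-24 gene. The libraries lie close together at each hairpin.

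The balance between the clusters differed among the 3 microRNA pairs. Ratios of counts within a library need no scaling between libraries. Mir23a exceeded Mir23b 1.18-fold in replicate 1 and 1.24-fold in replicate 2, a mean log2 ratio of 0.27 ± 0.051 (SD, n = 2). The log2 intervals, 0.22 to 0.25 in replicate 1 and 0.30 to 0.32 in replicate 2, excluded 0 and did not overlap each other. Mir27a stood far below Mir27b, with a log2 ratio of -2.37 (-2.44 to -2.30) in replicate 1 and -2.47 (-2.50 to -2.43) in replicate 2, a mean of -2.42 ± 0.068. Mir27b was thus 5.35-fold higher on average. Mir24-2 exceeded Mir24-1 12.6-fold in replicate 1 and 12.5-fold in replicate 2, with log2 ratios of 3.65 (3.23 to 4.11) and 3.65 (3.42 to 3.87). The 3 pairs were separated by far more than the spread between libraries. No condition was compared, so these ratios describe the deposited counts, from reads aligned to 1 place, and carry no test. Both miR-24 hairpins hold miR-24-3p whole, so the miR-24 ratio gives no measure of its balance in the tissue.

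Expressed as shares of each pair, the chromosome 8 gene gave 54.7% ± 0.883 of the miR-23 counts, 15.8% ± 0.626 of the miR-27 counts and 92.6% ± 0.0278 of the miR-24 counts (SD, n = 2). The share of Mir24-2 in the miR-24 counts was 92.6% in both libraries, with intervals of 90.4 to 94.5 in replicate 1 and 91.5 to 93.6 in replicate 2. Its SD is below the counting error, so the closeness of the libraries cannot be read as precision.

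Within a cluster, the neighbours stood at unlike levels. In the chromosome 8 cluster Mir23a held 97.0% ± 0.254 of the cluster's counts, Mir27a 2.28% ± 0.227 and Mir24-2 0.696% ± 0.0269. In the chromosome 13 cluster Mir23b held 86.8% ± 0.225, Mir27b 13.1% ± 0.225 and Mir24-1 0.0599%. These shares rest on reads aligned to 1 place, so those of the miR-24 genes give no measure of miR-24-3p. Mir27a was 39.7-fold below Mir23a in replicate 1 and 45.9-fold in replicate 2, with log2 ratios of -5.31 (-5.37 to -5.25) and -5.52 (-5.55 to -5.49) that did not overlap. Mir27b was 6.51-fold below Mir23b in replicate 1 and 6.69-fold in replicate 2, with overlapping intervals around log2 ratios of -2.70 and -2.74. The step from the miR-23 to the miR-27 gene was thus larger on chromosome 8, in both libraries.

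The step from the miR-27 to the miR-24 gene went the other way. Mir24-2 was 3.41-fold below Mir27a in replicate 1 and 3.13-fold in replicate 2, a mean log2 ratio of -1.71 ± 0.088. Mir24-1 was 222-fold below Mir27b in replicate 1 and 217-fold in replicate 2, a mean log2 ratio of -7.78 ± 0.026. How far the reads left out as aligned to several places enter this step was not tested. Among 61 pairs of detected neighbouring hairpins on 1 strand with a gap of at most 1000 bases, the median difference was 2.53 on the log2 scale without sign. Mir27b and Mir24-1 differed most of these pairs, Mir23a and Mir27a came at place 7, Mir23b and Mir27b at place 24, and Mir27a and Mir24-2 at place 41. The count of Mir24-1 lacks reads of miR-24-3p that match both loci, so its place describes the deposited counts and not the tissue. Places 3 to 6 also hold a gene that shares part of its mature sequences with another hairpin, whereas places 2 and 7 do not.

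**Figure D3:**
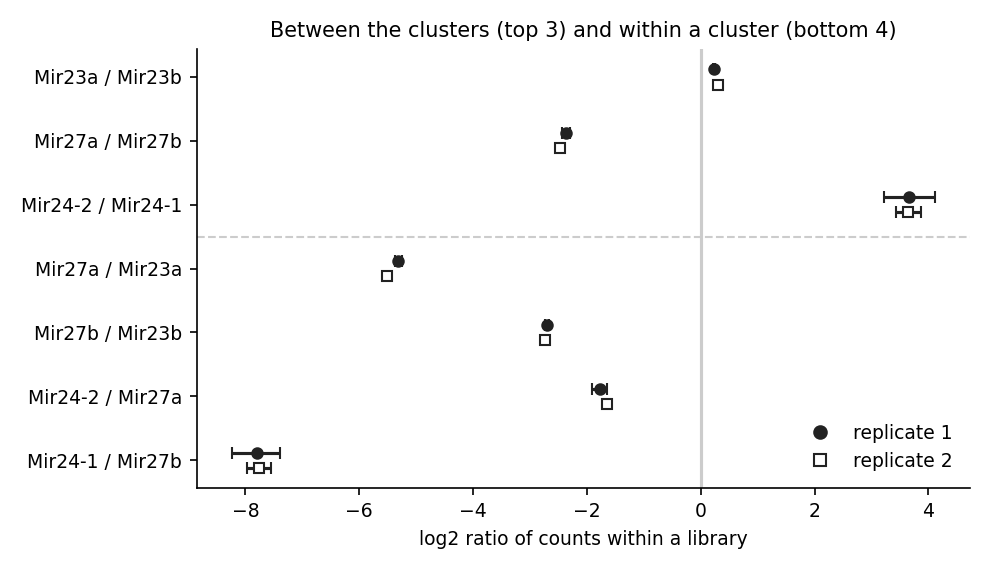
Log2 ratio of counts (horizontal axis) within replicate 1 (filled circles) and replicate 2 (open squares), with exact 95% intervals. The upper 3 pairs set the chromosome 8 gene over its partner on chromosome 13 and fall near 0.27, -2.42 and 3.65, and the lower 4 set a gene over its neighbour in the same cluster, from -1.71 down to -7.78.

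The libraries differed little in these genes when scaled by library totals. As log2 ratios, replicate 1 over replicate 2 gave -0.18 for Mir23a (95% interval -0.19 to -0.17), 0.03 for Mir27a (-0.04 to 0.10) and -0.10 for Mir24-2 (-0.23 to 0.03). For the chromosome 13 genes the values were -0.11 for Mir23b (-0.12 to -0.09), -0.07 for Mir27b (-0.10 to -0.04) and -0.10 for Mir24-1 (-0.60 to 0.36). The median log2 ratio of the 324 detected genes was 0.15, and relative to it the 6 genes lay between -0.33 for Mir23a and -0.12 for Mir27a, the only member whose sign this changes. Under DESeq2 size factors, which lowered every log2 ratio by 0.13, Mir27a came to -0.10, and with TMM scaling to -0.05.

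In a two-sided exact binomial test of replicate 1 against replicate 2, adjusted by Benjamini-Hochberg over the 364 genes with at least 10 counts in sum, 3 of the 6 genes differed, against 45.3% of all genes tested. They were Mir23a (adjusted p = 2.70e-225), Mir23b (adjusted p = 5.33e-67) and Mir27b (adjusted p = 8.50e-05), all higher in replicate 2, as were 15.1% of the genes tested, and no member was among the 30.2% higher in replicate 1. With library totals replicate 2 was 1.13-fold, 1.08-fold and 1.05-fold higher. The members' count moved with the scaling more than that of all genes: with TMM scaling 4 members passed, Mir24-2 being added (adjusted p = 0.0198), against 45.6% of all genes. With DESeq2 size factors 5 passed, against 47.8% of all genes, with Mir24-2 (adjusted p = 0.00205) and Mir27a (adjusted p = 0.0175) added. All members past the test were higher in replicate 2 under each scaling. Mir27a (adjusted p = 0.576), Mir24-2 (adjusted p = 0.264) and Mir24-1 (adjusted p = 0.839) did not pass the exact test with library totals. The intervals above cover counting error at that scaling alone, and the values of Mir27a under the other scalings lie outside its interval. The test compares these 2 libraries, with reads as the only source of error. Without sign, the median log2 ratio over the 6 genes was 0.094 with library totals, 0.17 with TMM scaling and 0.22 with DESeq2 size factors. Over the 72 genes with a mean of at least 1000 CPM it was 0.18, 0.22 and 0.24 in the same order, and over the detected genes it was between 0.27 and 0.28.

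Marker sums of other cell types differed between the libraries. Smooth muscle and fibroblast markers, nearly all Mir143, summed to 13.3% of the counts in replicate 1 and 6.34% in replicate 2. Of the 4 that could be tested, Mir143 and Mir145a were higher in replicate 1, Mir214 was higher in replicate 2 and Mir199a-2 did not pass. Mir214 had 1674 CPM in replicate 1, against 2355 CPM in replicate 2. Blood and immune markers summed to 0.540% in replicate 1 and 0.259% in replicate 2, and 5 of 6 were higher in replicate 1. With TMM scaling 4 of the 6 were higher there. With DESeq2 size factors 4 were higher in replicate 1 and 1 in replicate 2. Striated muscle markers went the other way, as given above, with Mir206 at 34864 and 72482 CPM and 3 of 9 markers higher in replicate 1, 4 higher in replicate 2. With DESeq2 size factors 2 of the 9 were higher in replicate 1 and 4 in replicate 2. Mir126a, the endothelial marker, was at 93328 CPM in replicate 1 and at 103367 CPM in replicate 2, while its partner Mir126b had 1 count in either. In bulk tissue, fewer cells of a type and less RNA per cell cannot be told apart. The part of these shifts in the members' levels was not tested.

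**Figure D4:**
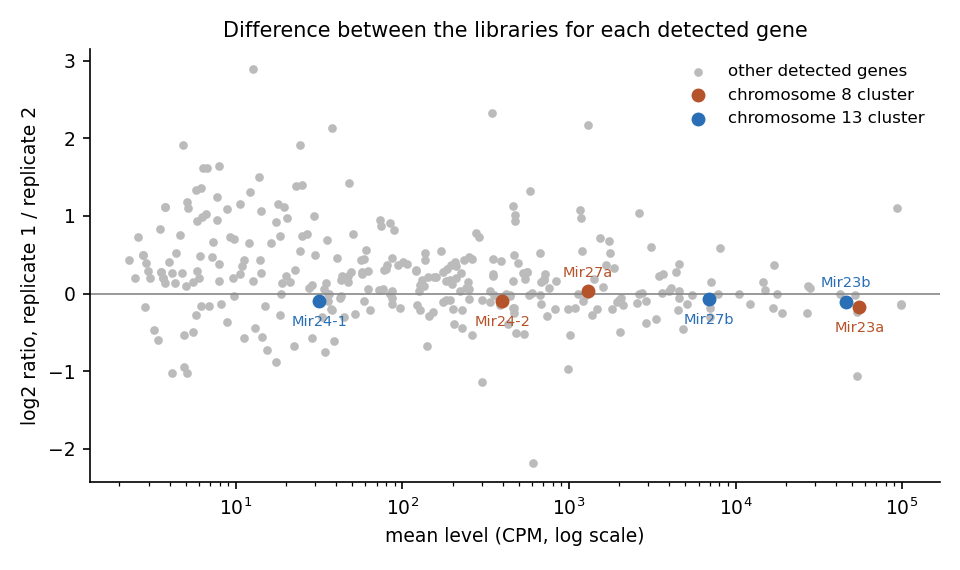
Log2 ratio of replicate 1 over replicate 2 (vertical axis) against mean level in CPM on a log scale (horizontal axis) for the 324 detected genes, with the chromosome 8 and chromosome 13 genes in colour. The 6 genes lie between -0.18 and 0.03, close to the line of no difference at this scaling by library totals.

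Other microRNAs known from blood vessels were given by a list of 11, among them the endothelial markers, of which 10 are annotated under the listed symbols and 9 could be tested. The listed Mir92a-1 was not matched by symbol. Mir92-1, at 390 CPM in replicate 1 and 412 CPM in replicate 2, did not pass the test and was not counted in the list. Of the 9 tested, 6 were higher in replicate 1, 1 was higher in replicate 2 and 2 did not pass, with a median log2 ratio of 0.33 against 0.15 over all genes tested. The shares over all genes tested were 30.2% higher in replicate 1, against 15.1% in replicate 2. With DESeq2 size factors, the list had 5 genes higher in replicate 1 against 1 in replicate 2, beside 80 and 94 of all genes tested. Mir221 and Mir222, which restrain endothelial growth, had 622 and 96.6 CPM in replicate 1 and 324 and 52.9 CPM in replicate 2. Mir130a, a microRNA of vessel growth, reached 4825 CPM in replicate 1 against 3970 CPM in replicate 2. Mir126a was the gene of the list higher in replicate 2. The 3 members past the test were higher there too, within the 15.1% of all genes tested. That share also holds genes outside the list, such as Mir22 and Mir206, so the direction is not particular to vessel genes.

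Genes most like the members were sought by the distance between log2(CPM + 1) values over the 2 libraries, which is too few for a correlation. Nearest to Mir23a was Mir22, at 49134 CPM in replicate 1 and 57682 CPM in replicate 2, a distance of 0.087, followed by Mirlet7g and Mir23b. For Mir23b the order was Mirlet7i, Mirlet7g and Mir22. Mir196b, Mir30d and Mir100 were nearest to Mir27b, and Mir351, Mir433 and Mir101b to Mir27a. Nearest to Mir24-2 were Mir92-1, Mir136 and Mir328, within a distance of 0.070.

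The opposite strand of the miR-24 loci gave few reads. Mir3074-1, opposite Mir24-1, had 10 counts in replicate 1 and 40 in replicate 2, or 6.36 and 7.37 CPM. Mir3074-2, opposite Mir24-2, had no count in either library, below the limits of 1.91 and 0.553 CPM given above. RefSeq gives both loci the same miR-3074-5p, so these levels are uncertain in the same way as those of Mir24-2 and Mir24-1. Outside the 6 genes, 4 annotated genes, Mir6413, Mir6410, Mir6369 and Mir5124b, carry the seed of miR-24-3p, and none had a count.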

How the data were processed

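MicroRNA sequencing libraries of replicates 1 and 2 were used. The authors deposited raw counts per microRNA gene for each library, in 3 columns that, from the values, hold reads on either strand, on the gene strand and on the opposite strand. The labels name the assembly as mm10, and the readme text deposited with the counts names the annotation as GENCODE M21. Aligner, counting tool and filter settings were not given in the sources used here. Each table opens with 4 tallies of reads given to no gene, which stayed out of library totals. Of all reads, 68.6% (replicate 1) and 69.7% (replicate 2) were tallied as aligned to several places and 7.95% and 6.08% as unaligned.

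CPM were computed from gene-strand counts over all 2202 gene rows. The libraries were compared gene by gene, where both together had 10 counts or more, by an exact binomial test (two-sided, odds from library totals). Benjamini-Hochberg adjustment was at 0.05. The procedure was tried on simulated data that held counting error alone, so that trial does not cover spread between libraries. Medians of log2 ratios between libraries used an offset of 0.5 counts. TMM factors came from edgeR 4.0.16 and size factors from DESeq2 1.42.0, under R 4.3.3. Python 3.11.15 ran the rest, with scipy 1.17.1, numpy 2.4.6, pandas 2.3.3 and matplotlib 3.10.9. Mature sequences were searched in the hairpins of all annotated microRNA genes. RefSeq mature entries matched 1018 of these genes by symbol. Named genes were the members, the genes opposite them, the 3 nearest to each member with a mean of at least 100 CPM, the rank neighbours of Mir23a and Mir23b, and list members. The genes and lists were chosen with earlier results of these data known. Alternatives were TMM and DESeq2 scaling, the either-strand column, shares of all aligned reads, no filter on low counts, detection at 1 or 10 CPM, and each replicate left out.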

Additional observations from a re-analysis of the deposited data

Results flagged for a closer look

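Reads on the opposite strand of Mir24-1, which its level does not use, numbered 10 in replicate 1 and 40 in replicate 2, above the 3 counts that a count of 0 allows. They equal the counts of Mir3074-1, the gene annotated there. Reads tallied as aligned to several places enter no level; their share was 68.6% for replicate 1 and 69.7% for replicate 2, and how many of them carry miR-24-3p is not given.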

How the results depend on the processing

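Of 53 alternatives to 18 results, 44 kept the value within the bounds set for it. For shares and ratios the bound was 1 SD between the libraries, within which either replicate alone always falls. The ratios that the either-strand column could give rest on the same counts as the main ones. None turned direction, but shares and counts cannot change sign, so this carries no weight. With the either-strand column, which leaves reads of overlapping genes out of the total, the share of the 6 genes was 14.3%, of the chromosome 8 cluster 7.42% and of the chromosome 13 cluster 6.90%. Over all aligned reads, the shares were 2.60%, 1.35% and 1.25%, since that total includes reads aligned to several places. With TMM scaling 4 members passed the exact binomial test in place of 3, and with DESeq2 size factors 5 (47.8% of all genes tested), since that scaling lowers every log2 ratio of replicate 1 over replicate 2 by 0.13. There, 80 genes stood higher in replicate 1 and 94 in replicate 2, against 110 and 55 with library totals and 90 and 76 with TMM scaling. The scalings of the marker lists, of the vascular list and of medians without sign were chosen after seeing the data. Leaving out replicate 1 or replicate 2 gave shares of 10.5 to 11.5% for the 6 genes. In the either-strand column Mir24-2 and Mir24-1 have no counts, as their reads are tallied as ambiguous, so their ratios gave no value there. With that column 4 members were detected, which the bounds still count as kept. No paired analysis was possible because all samples belong to 1 group. Counts limit Mir24-1 most, with 48 reads in replicate 1.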

Other observations

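Of the 1018 microRNA genes with RefSeq mature entries, 904 had no mature sequence that another annotated hairpin holds, and of these 64 reached a mean of 1000 CPM, among them Mir23a, Mir27a and Mir27b. Mir23b falls in that class by its 5p sequence, the only one listed for it. Another 61 genes shared part of their mature sequences, as Mir24-2 and Mir24-1 did, and 3 of these reached that level, namely Mirlet7f-2, Mir128-1 and Mir196a-2, named after their values were seen. By mean level Mir24-2 came at place 7 and Mir24-1 at place 22 of these 61 genes. None of the 53 genes that shared every listed mature sequence reached 1000 CPM. The share at that level was 7.08% with no mature sequence shared and 4.92% with part of them shared, against 6.58% of all 1018 genes. The median of detected genes was 179 CPM with no mature sequence shared, 47.5 CPM with part of them shared and 54.4 CPM with every one shared. Detection had another order, at 27.4% with none shared, 57.4% with part shared and 11.3% with every one shared, against 28.4% of all. These are descriptions with no test, and the part of reads left out as aligned to several places was not tested.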
